A study of Homo sapiens with 14 samples.

Results

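Translation initiation and elongation factors are the proteins that load ribosomes onto messenger RNA and move them along it. Their genes were followed here by RNA sequencing (RNA) and ribosome profiling (Ribo), which counts RNA held by ribosomes. The 52 genes were a fixed list, read from 1 count table by gene symbol, and they are 52 of its 59050 symbols. They were grouped by complex: 7 act in start codon selection and subunit joining, 3 are eIF2 subunits, 5 eIF2B subunits, 13 eIF3 subunits, 11 belong to the eIF4 group, 2 are 4E-binding proteins, 2 are poly(A)-binding proteins and 9 act in elongation. The cells were HUES8, an established human embryonic stem cell line of wild-type genotype, differentiated toward pancreas and sampled as definitive endoderm (DE), as early progenitors of the pancreas (PP1) and as late ones (PP2). There were 14 libraries, and in both assays DE and PP1 had 2 and PP2 had 3. RNA libraries came from total RNA depleted of ribosomal RNA and Ribo libraries from ribosome-bound RNA. Undifferentiated cells were not analysed here. No source said whether replicates were separate differentiations, so p-values reflect only how far libraries of a stage lay apart, a spread that may be technical.

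Initiation begins when eIF2 brings the initiator tRNA to the small ribosomal subunit, with eIF3, eIF1 and eIF1A bound there. The eIF4F complex, made of the cap-binding protein eIF4E, the scaffold eIF4G and the helicase eIF4A, recruits this assembly to the capped end of the message, and poly(A)-binding protein joins the message's tail to eIF4G. eIF5 and eIF5B complete the start, and eIF2B recharges eIF2, a step that stress kinases block. In elongation, eEF1A delivers charged tRNAs, the eEF1B subunits recharge eEF1A, eEF2 moves the ribosome by a codon and eIF5A relieves stalling. Many messages for elongation factors begin with a run of pyrimidines, the terminal oligopyrimidine (TOP) motif, through which the growth-control kinase mTORC1 regulates their translation. Nearly all dividing cells make these factors, and a few paralogs such as eEF1A2 and eIF5A2 are restricted to particular tissues.

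Library totals ran from 15107847 to 21009065 counts in RNA and from 4710335 to 24186949 in Ribo. The listed factors took 224762 to 561831 of the RNA counts and 17256 to 181522 of the Ribo counts. Among RNA counts in protein-coding genes their share was 1.72% and 1.67% (DE), 2.19% and 2.20% (PP1), and 2.23%, 2.20% and 2.96% (PP2). Among such Ribo counts it was 0.959% and 0.956% (DE), 1.28% and 1.22% (PP1), and 0.820%, 1.13% and 1.21% (PP2). RNA PP2 replicate 3 stood apart: of the 49 factors that averaged 5 CPM or more in PP2 replicates 1 and 2, 17 were over 1.5 times and 9 under 1/1.5 times that mean, with ratios from 0.272 (PABPC1) to 2.35 (EIF4A2). The mitochondrial rRNA MT-RNR2 took 49.2% to 60.8% of Ribo counts in DE and PP1, and 1.65%, 44.6% and 11.0% in PP2 replicates 1, 2 and 3. The stage labels were checked in RNA. All 4 definitive endoderm markers (SOX17, CXCR4, FOXA2, CER1) were detected, with a summed level of 5205 to 5461 CPM in DE and at most 160.2 later. The 2 late progenitor markers (NKX6-1, PTF1A) summed to 87.2 to 165 CPM in PP2 and at most 0.728 before. Hepatic markers (AFP, ALB, TTR, 3 of 3 detected) summed to 7516 to 8051 CPM in PP1 and 1516 to 4229 in PP2. Most of this was AFP, with a mean of 6775 CPM in PP1 and 2070 in PP2. ALB did not follow the sum, at 8.50 to 12.6 CPM in PP1 and 6.42 to 56.6 in PP2. In DE, AFP and TTR were at 0. Mesenchyme markers (COL1A1, COL3A1, PDGFRA) summed to 119.5 to 138 CPM in DE, with COL3A1 at 0. They summed to 405 to 452 CPM in PP1 and 252 to 423 in PP2. From PP1 to PP2 mean COL1A1 went from 246 to 31.4 CPM, while COL3A1 went from 84.1 to 163 and PDGFRA from 98.8 to 164. Endocrine markers (NEUROG3, CHGA, INS, GCG) summed to 47.9 to 70.7 CPM in PP2 and at most 1.79 before. Nearly all of the PP2 sum was CHGA (mean 62.0 CPM). NEUROG3 averaged 0.59 CPM there, and INS and GCG 0.032 each. INS and GCG were at 0 in DE and PP1. The part of such other cells in the changes below was not tested, and in bulk RNA fewer cells of a type and less RNA per cell cannot be told apart.

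The first transcribed bases of the genes are shown because the TOP motif sits there. Starts came from RefSeq (GRCh38.p14), and those used covered 41 of the 52 genes. For the listed factors, starts on 1 chromosome were left out before this count. A factor without a start here may therefore have one in RefSeq. The windows below run 5′ to 3′ on the gene's strand from 15 bases before the annotated start to 15 bases from it. Capitals mark a C at the first transcribed base followed by at least 4 C or T bases, read on the gene's own strand only. This run was found for 11 of the 41 genes (26.8%), beside 988 of 15843 protein-coding genes in the same table (6.24%). The latter set was not limited by chromosome, so the shares do not cover like sets of genes.
EEF1A1 (chr6:73521018-73521047, minus strand): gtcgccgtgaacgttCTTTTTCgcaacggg
EEF1B2 (chr2:206159880-206159909, plus strand): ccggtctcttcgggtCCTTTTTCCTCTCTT
EEF2 (chr19:3985449-3985478, minus strand): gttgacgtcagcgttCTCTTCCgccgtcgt
EIF2A (chr3:150546772-150546801, plus strand): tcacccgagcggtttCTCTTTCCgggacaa
EIF2S3 (chrX:24054941-24054970, plus strand): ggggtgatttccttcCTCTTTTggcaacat
EIF3D (chr22:36529152-36529181, minus strand): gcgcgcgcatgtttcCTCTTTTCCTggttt
EIF3F (chr11:7987322-7987351, plus strand): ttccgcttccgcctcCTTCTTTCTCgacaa
EIF3K (chr19:38619173-38619202, plus strand): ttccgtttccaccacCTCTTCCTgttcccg
EIF3M (chr11:32583816-32583845, plus strand): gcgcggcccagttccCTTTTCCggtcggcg
EIF4A2 (chr3:186783562-186783591, plus strand): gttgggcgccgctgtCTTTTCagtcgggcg
EIF4B (chr12:53006441-53006470, plus strand): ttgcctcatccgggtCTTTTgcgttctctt
The longest run, 16 bases in EEF1B2, goes 1 base beyond its window, and the shortest, in EIF4B, has 5. For contrast, these are the starts of 3 genes whose values matter below and that lack the run.
EIF4A1 (chr17:7572810-7572839, plus strand): aggcgggcactccgccctagtttctaagga
EIF1 (chr17:41688870-41688899, plus strand): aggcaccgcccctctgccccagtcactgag
EIF5A2 (chr3:170908623-170908652, minus strand): cccgccccgtctcttggaactgccgcggcc
EIF4A1 and EIF4A2, paralogs that encode nearly interchangeable helicases, thus differ at this position. A match describes these letters at an annotated start and not a start measured in these cells.

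Levels are given as CPM, the counts scaled to a common library size after correction by the trimmed mean of M-values (TMM), and changes are log2 fold changes ± SE. Tests were edgeR quasi-likelihood F tests over all genes of an assay, and a gene was called at a Benjamini-Hochberg adjusted p under 0.05. EEF1G, the gamma subunit of the eEF1B exchange factor, was listed at 0 in all 14 libraries. Since 8 rows named as its copies held 73 RNA and 104 Ribo counts, its own row may not measure the gene, and no limit is drawn from it. It was left out of all tests, and EIF5A2 failed the low-count filter in Ribo, so 51 factors were tested in RNA and 50 in Ribo and in the ratio.

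From DE to PP1, RNA of 8 factors rose and that of 2 fell. Over all 24603 genes tested, 12.3% rose and 12% fell. Those that rose spanned initiation and elongation: EIF1, EIF1B, EIF2S3, EIF3C, EIF3J, EIF4E3, EEF1D and EEF2. EIF5A2 and EEF1A2, the tissue-restricted paralogs, fell. The median change of the 51 factors was 0.30, beside 0.01 over all genes, and 37 of 51 were above 0. From PP1 to PP2 none rose and 7 fell (EIF1, EIF2B4, EIF3A, EIF3B, EIF3C, EIF3K and EEF1A2), where 7.8% of all genes rose and 10.6% fell, with a median of -0.28. In edgeR no factor passed as higher in PP2 than in PP1, while DESeq2 called 1 (EIF5A2) and 16 of the 51 had an unadjusted p under 0.05 in either direction. Between DE and PP2, 3 were higher (EIF3J, EIF4E3, EEF1D) and 5 lower (EIF2B4, EIF3K, EIF4E2, EIF5A2, EEF1A2) in PP2, where 16.4% of all genes were higher and 17.1% lower.

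The 3 stages share 1 estimate of spread, and leaving out RNA PP2 replicate 3 raised the number of factors that passed. Without it, 29 factors rose and 5 fell from DE to PP1, where 25.1% of all genes rose and 24.7% fell. Into PP2, 2 then rose and 30 fell, beside 18.2% and 23.3% of all genes. Between DE and PP2, 16 were higher and 17 lower, beside 25.3% and 27.2%. These comparisons share libraries with each other. By complex, 6 of 13 eIF3 subunits rose into PP1 and 8 fell into PP2 in that fit, and of 11 eIF4 genes 6 rose and 2 fell into PP1 and 7 fell into PP2.

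**Figure D1:**
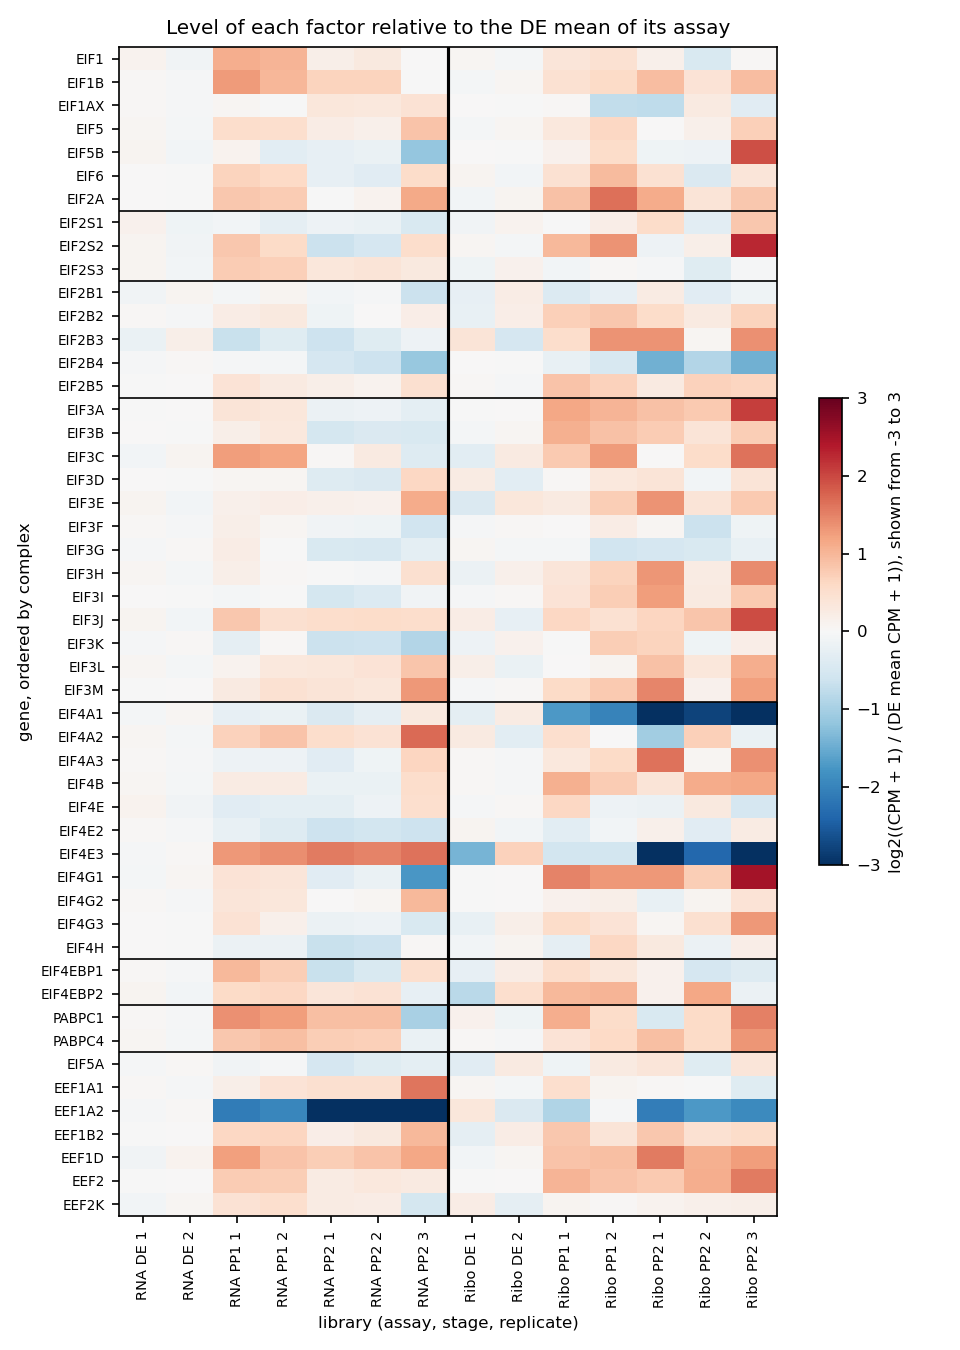
Heat map of the level of 50 factors (rows, ordered by complex, with lines between complexes) in the 14 libraries (columns, RNA left and Ribo right), as log2 of (CPM + 1) over (mean DE CPM of the assay + 1), with colors cut at -3 and 3. EEF1A2 was low in PP1 and PP2 RNA, EIF4E3 was high in RNA and low in PP2 Ribo, and RNA PP2 replicate 3 differed from the other 2 PP2 columns for many rows, such as PABPC1 and EIF4G1.

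Ribosome-bound RNA gave fewer calls. From DE to PP1 no factor passed in edgeR or in DESeq2, beside 4.52% of all 15067 genes up and 3.01% down, although 6 of 50 had an unadjusted p under 0.05. The median change was 0.47, beside -0.04 over all genes, and 41 of 50 were above 0, also with DESeq2 size factors and with protein-coding genes only. Without Ribo PP2 replicates 1 and 3, whose MT-RNR2 share was low, 9 rose and 1 fell, where 10.4% of all genes rose and 7.38% fell. The largest of these was EIF4G1 at 1.46 ± 0.24 (adjusted p = 0.000147), and EIF3A was at 1.15 ± 0.22 (adjusted p = 0.000715). Between PP1 and PP2 only EIF4E3 passed and fell, beside 2.16% of all genes up and 2.85% down. Between DE and PP2, EIF4G1 and EEF1D were higher and EIF2B4, EIF4A1, EIF4E3 and EEF1A2 lower in PP2, where 13.1% of all genes were higher and 14.5% lower. Without Ribo PP2 replicates 1 and 3 these were 4 higher (EIF3A, EIF4EBP2, EEF1D and EEF2) and 3 lower (EIF4A1, EIF4E3 and EEF1A2), beside 7.61% and 6.63% of all genes. Leaving out Ribo PP2 replicate 2 gave 17 higher and 4 lower, beside 22.3% and 24.1% of all genes, and 8 of the 17 were eIF3 subunits.

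The difference between the Ribo change and the RNA change, called here the ribosome density change, was tested in a fit of all 14 libraries. No factor passed from DE to PP1 in edgeR or DESeq2, beside 0.0848% of all 14152 genes up and 0.205% down, and 2 of 50 had an unadjusted p under 0.05. None passed from PP1 to PP2, beside 0.00707% up and 0.0707% down, with 3 at an unadjusted p under 0.05 and 1 called by DESeq2 (EIF4E3, down). Between DE and PP2, EEF1A2 was higher and EIF4A1 and EIF4E3 were lower, where 3.33% of all genes were higher and 3.71% lower. Without Ribo PP2 replicates 1 and 3 none was higher and 2 were lower (EIF4A1 and EIF4E3), beside 0.431% and 0.817% of all genes. Without Ribo PP2 replicate 2 there were 11 higher and 2 lower, beside 15.4% and 13.8% of all genes. The median density change of the 50 factors from DE to PP2 was 0.34, beside 0.14 over all genes and 0.23 over the protein-coding genes of the same fit. With protein-coding genes only it was 0.19, beside 0.08 over the genes tested.

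**Figure D2:**
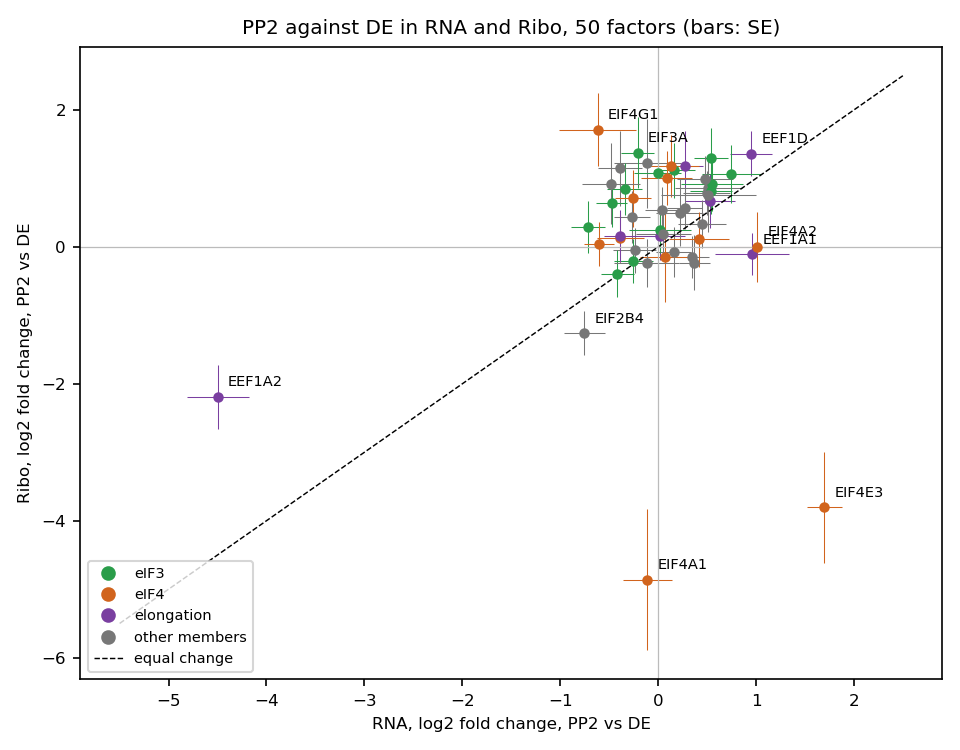
Log2 fold change of PP2 against DE in RNA (x axis) and Ribo (y axis) for 50 factors, colored by complex, with SE bars and a dashed line of equal change. EIF4E3 and EIF4A1 lie far below the line, with Ribo changes of -3.80 and -4.86, and EEF1A2 lies above it, with an RNA change of -4.50 and a Ribo change of -2.19.

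Among the factors that select the start codon, EIF1 and its paralog EIF1B rose together from DE to PP1 in RNA. EIF1 keeps the scanning ribosome open until a proper start codon is found. Its RNA was at 223 and 194 CPM (DE), 445 and 420.3 (PP1), and 235, 255 and 210.1 (PP2). Both PP1 libraries lay above all others, and the change was 1.05 ± 0.20 (adjusted p = 0.00587) into PP1 and -0.89 ± 0.18 (adjusted p = 0.0114) into PP2. EIF1B RNA was at 39.5 and 37.9 CPM (DE), 95.9 and 78.3 (PP1), and 62.6, 62.5 and 38.6 (PP2). It rose by 1.17 ± 0.27 (adjusted p = 0.0141), and its PP2 values lay between those of DE and PP1 apart from replicate 3, which was within the DE range. In Ribo, EIF1 was at 188 and 173 CPM (DE), 233 and 246 (PP1), and 199, 132 and 184 (PP2), with overlapping ranges in DE and PP2. Per kb of gene model EIF1B made up 25.4% to 27.3% of the pair's RNA in DE and 26.0% to 33.8% in PP2. Its share of the pair's Ribo signal went from 28.6% and 32.2% in DE to 43.2% to 45.0% in PP2, without overlap. EIF5, which triggers GTP hydrolysis on eIF2, EIF5B, which joins the subunits, EIF6, which keeps free large subunits apart, EIF1AX and EIF2A did not pass in any comparison with all libraries. The EIF1 rise was lost without RNA DE replicate 2 or PP1 replicate 1 (adjusted p up to 0.0867), its fall without either PP1 library (up to 0.116), and the EIF1B rise without any 1 DE or PP1 library (up to 0.114). Without RNA PP2 replicate 3, EIF5, EIF6 and EIF2A also rose into PP1, EIF2A by 0.80 ± 0.09 (adjusted p = 6.4e-07).

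Of the eIF2 subunits, EIF2S3, the gamma subunit that binds GTP and the initiator tRNA, rose in RNA from DE to PP1. It was at 203 and 180.3 CPM (DE), 327 and 317 (PP1), and 245, 252 and 237 (PP2), and the change was 0.75 ± 0.18 (adjusted p = 0.019). Each later library lay above both DE libraries. The call was lost without any 1 DE or PP1 library (adjusted p up to 0.187). EIF2S1, the alpha subunit that the stress kinases phosphorylate, stayed within 50.0 to 74.7 CPM in RNA and did not pass. EIF2S2, the beta subunit, was at 145 and 128 CPM (DE), 239.5 and 202 (PP1), and 87.1, 95.3 and 197 (PP2). PP2 replicate 3 stood apart from the other 2, and without it EIF2S2 rose by 0.69 ± 0.10 (adjusted p = 6.9e-06) into PP1 and changed by -1.27 ± 0.10 (adjusted p = 3.7e-09) into PP2. Per kb, RNA of EIF2S1 was the lowest of the 3 subunits in every stage, and the highest was 4.15 times it in DE, 7.59 times in PP1 and 5.60 times in PP2.

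EIF2B4, the delta subunit of the exchange factor eIF2B, was the eIF2B gene that passed. Its RNA was at 44.5 and 46 CPM (DE), 44.3 and 43.5 (PP1), and 31.5, 28.8 and 20.1 (PP2). All 3 PP2 libraries lay below the DE and PP1 libraries, with a change of -0.75 ± 0.21 (adjusted p = 0.0246) against DE and -0.71 ± 0.21 (adjusted p = 0.0494) against PP1. In Ribo it was at 89.2 and 88 CPM (DE), 75.3 and 62.7 (PP1), and 31.7, 47.4 and 32.2 (PP2). Here too all PP2 libraries lay below all others, and the change against DE was -1.26 ± 0.32 (adjusted p = 0.0159). The density change, -0.50 ± 0.38 (adjusted p = 0.396), did not pass. Among the 5 subunits EIF2B4 had the highest Ribo level per kb in DE, 8.57 times that of EIF2B3, and in PP2 the highest and lowest subunit (EIF2B1 and EIF2B2) were 1.87 times apart. EIF2B3, EIF2B1, EIF2B2 and EIF2B5 passed in no comparison with all libraries. Over the alternatives, EIF2B4 had an adjusted p of up to 0.143 in RNA and 0.118 in Ribo for PP2 against DE. The RNA call was lost without either DE or either PP1 library. Without Ribo PP2 replicates 1 and 3 the Ribo change was -0.85 ± 0.32 (adjusted p = 0.086), and the Ribo call was also lost without any 1 of the Ribo DE or PP1 libraries or PP2 replicate 3. The RNA call against PP1 was lost without any 1 library other than PP2 replicate 3 (adjusted p up to 0.234). It was also lost with DESeq2 size factors and with protein-coding genes only, and the Ribo call was lost without a low-count filter.

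eIF3 is the largest initiation factor and holds the message on the small subunit. Of its 13 subunits, 2 rose in RNA from DE to PP1, where 12.3% of all genes did, and 4 fell from PP1 to PP2, where 10.6% did. EIF3C, a core subunit, did both. Its RNA was at 9.5 and 10.7 CPM (DE), 25.6 and 24.3 (PP1), and 10.4, 12.3 and 7.47 (PP2), with both PP1 libraries above all others. It rose by 1.31 ± 0.26 (adjusted p = 0.00799) and fell by 1.31 ± 0.23 (adjusted p = 0.00703). EIF3C has a nearly identical copy, EIF3CL, so its reads may be divided or dropped in counting, and its level per kb was the lowest of the 13 subunits in every stage and assay. EIF3J, a loosely bound subunit involved in recycling, was at 49.2 and 44.3 CPM (DE), 82.2 and 65.8 (PP1), and 67.4, 68.9 and 67.3 (PP2). All later libraries lay above DE, and the change was 0.66 ± 0.19 (adjusted p = 0.034) in PP1 and 0.54 ± 0.17 (adjusted p = 0.043) in PP2. The protein-coding gene SPG11 overlaps EIF3J, and its own row held 15489 RNA and 4003 Ribo counts. The EIF3J row held 8063 and 5691, and the part of SPG11 in it was not tested. EIF3A, the largest subunit, was at 484 and 486 CPM (DE), 635 and 611 (PP1), and 427, 434 and 397 (PP2), and EIF3B, its partner in the core, at 216 and 209.9 CPM (DE), 239.7 and 267 (PP1), and 148, 157 and 154 (PP2). For each of these 2 genes every PP2 library lay below every PP1 library, and the changes were -0.57 ± 0.17 (adjusted p = 0.0479) and -0.73 ± 0.16 (adjusted p = 0.0177). EIF3K, a peripheral subunit, was at 129 and 135 CPM (DE), 110.1 and 136 (PP1), and 84.1, 85.7 and 71.5 (PP2). All of its PP2 libraries lay below all others, with -0.61 ± 0.18 (adjusted p = 0.047) against PP1 and -0.72 ± 0.18 (adjusted p = 0.0157) against DE. The EIF3C rise was lost without either RNA DE library or PP1 replicate 1 (adjusted p up to 0.0827) and its fall without either PP1 library (up to 0.071). Without any 1 RNA library other than PP2 replicate 3, EIF3J, EIF3A, EIF3B and EIF3K lost the calls above, with adjusted p up to 0.291, 0.263, 0.166 and 0.326, except that EIF3K against DE was lost only without a DE library (up to 0.124). The EIF3A call and that of EIF3K against PP1 were also lost with protein-coding genes only and without a low-count filter, and that of EIF3A with DESeq2 size factors. Both EIF3J calls were lost without the filter, and the one in PP2 in DESeq2. Without RNA PP2 replicate 3, 8 of the 13 fell from PP1 to PP2 with a median of -0.43.

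In Ribo no eIF3 subunit passed with all libraries. EIF3A was at 231 and 236 CPM (DE), 528 and 476 (PP1), and 433, 404 and 987 (PP2). The PP1 and PP2 libraries all lay above the DE libraries, and PP2 replicate 3 was over 2 times as high as replicates 1 and 2. EIF3B was at 98 and 106 CPM (DE), 213 and 188 (PP1), and 174, 135 and 169.5 (PP2), and its 2 DE libraries were the lowest of the 7. EIF3J came nearest to the threshold, at 1.29 ± 0.44 (adjusted p = 0.0504) from DE to PP2. The density change from DE to PP2 was above 0 for 13 of 13 subunits, with a median of 0.75 beside 0.14 over all genes. The median over the protein-coding genes of the same fit, given above, was higher than that over all genes. The share of all genes above 0 was not computed. With DESeq2 size factors the density change was above 0 for 12 of 13 subunits. With protein-coding genes only it was above 0 for 11 of 13, and the median was 0.60 beside 0.08 over the genes tested. None passed: EIF3A was at 1.59 ± 0.52 (adjusted p = 0.0696) and EIF3B at 1.12 ± 0.35 (adjusted p = 0.0596). In DESeq2, EIF3A, EIF3B and EIF3I passed, and without Ribo PP2 replicate 2, EIF3A was at 1.83 ± 0.43 (adjusted p = 0.00728). The Ribo libraries of PP2 carry less MT-RNR2 in replicates 1 and 3, and the part of that in these values was not tested.

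Leaving out EIF3C and EIF3J, the other 11 subunit genes spanned 5.50 times in RNA per kb in DE, from EIF3M to EIF3A, and 4.67 times in PP2, from EIF3F to EIF3E. In Ribo their span was 10.7 times in DE, from EIF3F to EIF3G, 15.4 times in PP1 and 23.6 times in PP2, from EIF3F to EIF3A. Gene model length includes untranslated regions, so Ribo per kb is not a rate per codon.

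**Figure D3:**
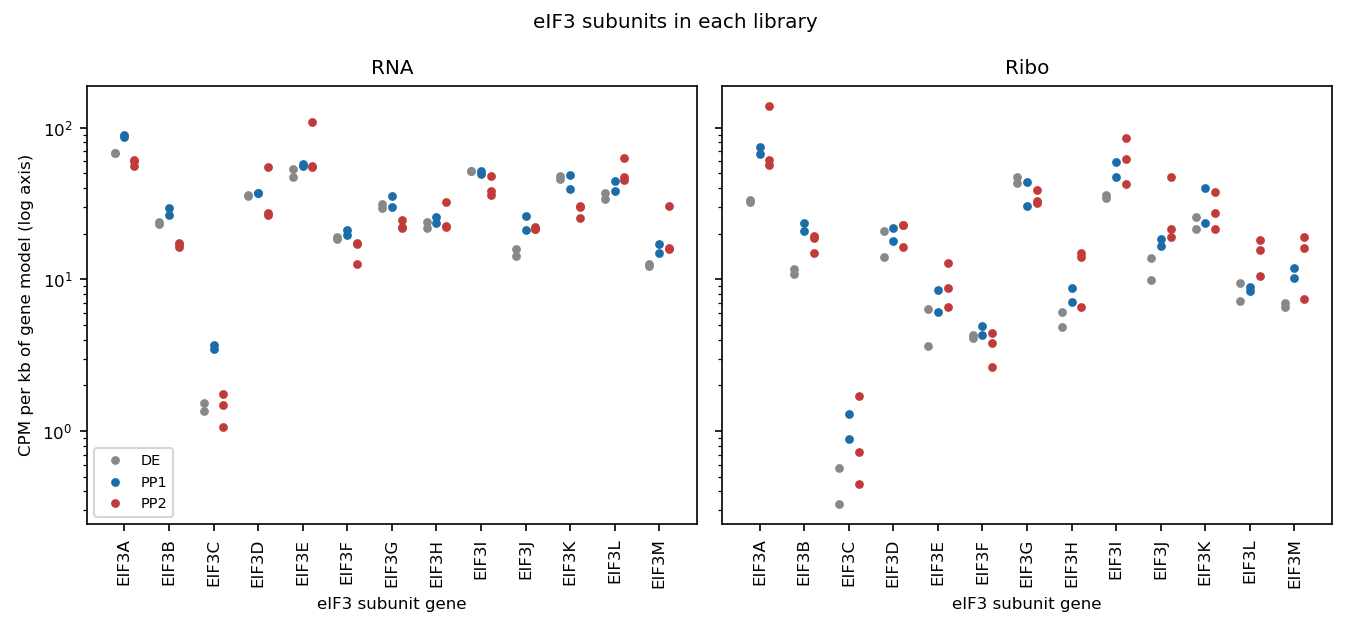
RNA (left) and Ribo (right) level of the 13 eIF3 subunit genes in each library (points, colored by stage), in CPM per kb of gene model on a log axis. EIF3C is lowest throughout. In RNA the PP2 points of EIF3A, EIF3B and EIF3K lie below their PP1 points, and in Ribo the DE points of EIF3A and EIF3B are the lowest of each gene.

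In the eIF4 group the 2 assays parted for EIF4E3, a cap-binding relative of EIF4E that binds no eIF4E-binding protein. Its RNA was at 6.65 and 6.98 CPM (DE), 18.3 and 19.4 (PP1), and 22.1, 21 and 23.2 (PP2). Every later library was over 2 times as high as DE, with 1.47 ± 0.19 (adjusted p = 0.000917) in PP1 and 1.70 ± 0.18 (adjusted p = 0.000232) in PP2. In Ribo it was at 14.9 and 66.6 CPM (DE), 27.7 and 27.3 (PP1), and 1.04, 7.12 and 1.3 (PP2). The 2 DE libraries differed 4.48 times, PP1 lay between them, and all 3 PP2 libraries were below all others. The Ribo change was -0.57 ± 0.84 (adjusted p = 0.745) from DE to PP1, -3.24 ± 0.81 (adjusted p = 0.0447) from PP1 to PP2 and -3.80 ± 0.81 (adjusted p = 0.00731) from DE to PP2. The density change from DE to PP2 was -5.55 ± 0.97 (adjusted p = 0.00669), lost without either RNA DE library (adjusted p up to 0.0779). Without Ribo DE replicate 2, the highest library, the Ribo change from DE to PP1 became 0.92 and PP2 against DE had an adjusted p of 0.0951. The fall from PP1 to PP2 in Ribo lost its call without either PP1 library and without PP2 replicate 1 or 3, with an adjusted p of up to 0.199, and without PP2 replicates 1 and 3 together it was -1.94 ± 0.62 (adjusted p = 0.0875). These RNA rises passed in all 12 alternatives, the highest adjusted p being 0.0192. The protein-coding gene GPR27 overlaps EIF4E3, and its own row held 817 RNA and 176 Ribo counts. The EIF4E3 row held 2197 and 763, and the part of GPR27 in it was not tested.

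EIF4A1, the main helicase of eIF4F in most cells, was at 17.3 and 18.8 CPM (DE), 15 and 15.7 (PP1), and 13.1, 14.7 and 22.4 (PP2) in RNA and did not pass, with -0.11 ± 0.25 (adjusted p = 0.772) from DE to PP2. In Ribo it was at 19.1 and 28.4 CPM (DE), 6.46 and 5.23 (PP1), and 0.33, 2.59 and 0 (PP2). The 3 stages did not overlap, and PP2 replicate 3 had no count. The Ribo change from DE to PP2 was -4.86 ± 1.03 (adjusted p = 0.00716) and passed in all 13 alternatives, and the density change was -4.90 ± 1.05 (adjusted p = 0.0182), lost without either RNA DE library (adjusted p up to 0.119). The row is low for this gene: it held 2122 RNA and 340 Ribo counts, while 13 rows named as its copies held 81.0% of the Ribo counts of gene and copies together, and SENP3-EIF4A1 and 3 small nucleolar RNA genes whose own rows hold 0 counts overlap it. In Ribo PP2 its highest library was replicate 2, also the one with the highest MT-RNR2 share, and their relation was not tested. Its paralog EIF4A2 was at 198 and 182 CPM (DE), 309 and 343 (PP1), and 274, 256 and 621 (PP2) in RNA, 1.01 ± 0.38 (adjusted p = 0.076) from DE to PP2. Replicate 3 of PP2 stood highest, and without it the change was 0.49 ± 0.09 (adjusted p = 0.000116). EIF4A2 made up 89.3% and 90.8% of the pair's RNA per kb in DE and 93.8% to 96.0% in PP2. EIF4A3, a helicase of the exon junction complex, passed in no comparison with all libraries.

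EIF4G1, the main scaffold of eIF4F, was the initiation factor that rose in Ribo. It was at 78 and 79.7 CPM (DE), 225 and 196 (PP1), and 196, 132 and 448 (PP2), each PP1 and PP2 library above both DE libraries, with 1.71 ± 0.53 (adjusted p = 0.0347) from DE to PP2. Its RNA was at 723 and 774 CPM (DE), 1002 and 960.00 (PP1), and 590.4, 649 and 224 (PP2), where replicate 3 of PP2 lay far below the other 2, and the RNA change was -0.62 ± 0.39 (adjusted p = 0.264). The density change, 2.33 ± 0.69 (adjusted p = 0.0523), missed the threshold. Ribo PP2 replicate 3 was the highest library, and without it the Ribo change from DE to PP2 was 1.06 (adjusted p = 0.105). The call was also lost without any 1 DE or PP1 Ribo library (adjusted p up to 0.162), and without Ribo PP2 replicates 1 and 3 the change was 0.80 ± 0.28 (adjusted p = 0.0661). The small nucleolar RNA gene SNORD66 overlaps EIF4G1, and its own row held 0 RNA and 5400 Ribo counts, beside 85814 RNA and 17333 Ribo counts in the EIF4G1 row. The part of SNORD66 fragments in the EIF4G1 Ribo level was not tested. EIF4G2, a relative that lacks the eIF4E site, was the most abundant of the 3 scaffolds per kb in each stage of RNA, with 51.4% to 54.1% of their sum in DE. It was at 1124 and 1057 CPM (DE), 1405 and 1382 (PP1), and 1099.6, 1139.8 and 2127 (PP2) and did not pass. EIF4G3 ranged from 170.3 to 316 CPM in RNA and from 50.7 to 146 CPM in Ribo and did not pass either.

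EIF4E, the cap-binding protein itself, ranged from 69.0 to 126 CPM in RNA and from 2.02 to 5.65 CPM in Ribo and did not pass. Rows named as its copies held 52.1% of the Ribo counts of gene and copies, so its low Ribo level is uncertain. EIF4E2, a cap-binding relative tied to repression, was at 79.4 and 75.3 CPM (DE), 66.1 and 58.9 (PP1), and 49.9, 52.5 and 50.3 (PP2). All PP2 libraries lay below all others, with -0.60 ± 0.15 (adjusted p = 0.0176) against DE. The EIF4E2 call was lost without either RNA DE library or PP2 replicate 1 (adjusted p up to 0.145), and also without a low-count filter. Its Ribo level, from 34.7 to 52.4 CPM, showed overlapping stages. EIF4B and EIF4H, which stimulate the helicase, did not pass in any comparison with all libraries.

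The 4E-binding proteins hold eIF4E away from eIF4G until mTORC1 phosphorylates them. EIF4EBP1 RNA was at 77.2 and 74.1 CPM (DE), 149 and 128 (PP1), and 47.3, 54.9 and 107 (PP2). The PP1 libraries were the highest, and PP2 replicate 3 lay above the other 2. The change from PP1 to PP2, -0.99 ± 0.33 (adjusted p = 0.072), did not pass with all libraries and was -1.43 ± 0.10 (adjusted p = 9.8e-10) without that library. EIF4EBP2 was at 351 and 310.1 CPM (DE), 496 and 506 (PP1), and 426, 450.3 and 278 (PP2). PP1 again stood highest, at 0.60 ± 0.26 (adjusted p = 0.138) with all libraries and 0.60 ± 0.09 (adjusted p = 7.8e-06) without RNA PP2 replicate 3.

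PABPC1, the main cytoplasmic poly(A)-binding protein, was the factor that RNA PP2 replicate 3 moved most. It was at 1184 and 1126 CPM (DE), 2976 and 2771 (PP1), and 2176, 2176 and 592 (PP2). Both PP1 libraries and PP2 replicates 1 and 2 lay above DE, and PP2 replicate 3 lay below it. The change was 1.31 ± 0.53 (adjusted p = 0.116) into PP1 and -0.80 ± 0.47 (adjusted p = 0.275) into PP2. Without that library it rose by 1.32 ± 0.09 (adjusted p = 8.8e-11) and fell by 0.40 ± 0.08 (adjusted p = 0.000826). PABPC4, the inducible form, was at 166 and 155 CPM (DE), 281 and 301 (PP1), and 267, 267 and 141 (PP2), with the same library low. PABPC1 made up 87.3% to 94.5% of the pair's RNA per kb over all RNA libraries.

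The largest RNA changes among the factors were in elongation, where the tissue-restricted paralogs of eEF1A and eIF5A fell. EEF1A2, the eEF1A form known from neurons and muscle, was at 31.6 and 32.8 CPM (DE), 6.72 and 7.59 (PP1), and 2.14, 1.17 and 0.968 (PP2) in RNA. The 3 stages did not overlap, and each step was down: -2.17 ± 0.32 (adjusted p = 0.00194), -2.33 ± 0.31 (adjusted p = 0.00227), and over both -4.50 ± 0.32 (adjusted p = 2.7e-05). These 3 calls held in all 12 alternatives, with a highest adjusted p of 0.0296. In Ribo it was at 19.1 and 10.9 CPM (DE), 7.53 and 14.5 (PP1), and 2.79, 3.88 and 3.25 (PP2). DE and PP1 overlapped there and all PP2 libraries lay below them, with -2.19 ± 0.47 (adjusted p = 0.00767) from DE to PP2. The Ribo call was lost without Ribo DE replicate 1 (adjusted p up to 0.0836). The density change was 2.30 ± 0.59 (adjusted p = 0.0339). That density call was lost in 9 of 21 alternatives, among them leaving out either RNA DE library, either RNA PP1 library, RNA PP2 replicate 2, Ribo DE replicate 2 or Ribo PP2 replicate 3, with an adjusted p of up to 0.142. Without Ribo PP2 replicates 1 and 3 it was 2.60 ± 0.68 (adjusted p = 0.091). The neural marker list (PAX6 and SOX1, 2 of 2 detected) was also higher in DE RNA, at 99.2 to 105 CPM against at most 0.369 CPM later, nearly all of it PAX6. Other lists fell from DE as well: the mesendoderm markers EOMES, MIXL1 and GSC (3 of 3 detected) summed to 759 to 842 CPM in DE and at most 4.46 later, and the pluripotency markers POU5F1 and NANOG (2 of 2 detected) to 39.4 to 44.1 CPM in DE and at most 0.599 later. The part of any of these cells in the EEF1A2 change, or in that of EIF5A2 below, was not tested.

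EEF1A1, the widespread form, was the most abundant factor in RNA per kb in every stage. It was at 4361 and 4180.4 CPM (DE), 4809 and 5683 (PP1), and 5999.8, 5919 and 13009 (PP2). PP2 replicate 3 was over 2 times the other 2, and the change from DE to PP2 was 0.96 ± 0.38 (adjusted p = 0.0839), or 0.49 ± 0.09 (adjusted p = 0.000186) without it. EEF1A2 thus made up 0.825% and 0.893% of the pair's RNA per kb in DE and 0.00854% to 0.0409% in PP2. In Ribo, EEF1A1 was at 47.5 and 43.8 CPM (DE), 65.1 and 48.2 (PP1), and 46.8, 45.4 and 35.3 (PP2), far below its RNA level, and 39 rows were named as its copies. Reads shared with copies may be lost in counting, so the 2 assays' levels of EEF1A1 are uncertain.

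EIF5A2, the restricted eIF5A paralog, was at 11.9 and 8.11 CPM (DE), 0.891 and 0.676 (PP1), and 1.2, 2.3 and 4.38 (PP2) in RNA. DE was highest and PP1 lowest, with no overlap between the 3 stages. It fell by 3.68 ± 0.60 (adjusted p = 0.00307) into PP1 and was -1.92 ± 0.46 (adjusted p = 0.0136) in PP2 against DE. The second call was lost without RNA DE replicate 1 (adjusted p up to 0.111). In Ribo, DE replicates 1 and 2 held 24 and 6 of its counts, neither PP1 library held any, and PP2 replicates 1, 2 and 3 held 18, 1 and 10. The 2 DE libraries differ too far for a fold to be given, and 0 counts in PP1 allow up to 0.419 CPM there (3 counts over the group, counting error only). EIF5A, the widespread form, ranged from 127 to 185 CPM in RNA and did not pass from DE to PP1, at -0.08 ± 0.18 (adjusted p = 0.809).

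EEF2, the translocase, and EEF1D, the delta subunit of the eEF1B exchange factor, rose. EEF2 RNA was at 1884 and 1899 CPM (DE), 3226 and 3155 (PP1), and 2236, 2364 and 2273 (PP2). PP1 was highest and PP2 lay between PP1 and DE without overlap, with 0.75 ± 0.20 (adjusted p = 0.0275) into PP1 and -0.48 ± 0.18 (adjusted p = 0.105) into PP2. In Ribo it was at 549 and 549.7 CPM (DE), 1107 and 998 (PP1), and 950.1, 1164 and 1626 (PP2). Each PP1 and PP2 library lay above both DE libraries, and the change from DE to PP2, 1.18 ± 0.51 (adjusted p = 0.106), did not pass. EEF1D RNA was at 29.7 and 34.7 CPM (DE), 77.2 and 58.9 (PP1), and 54, 59.1 and 73.1 (PP2), all later libraries above DE, with 1.08 ± 0.23 (adjusted p = 0.0105) in PP1 and 0.95 ± 0.21 (adjusted p = 0.0103) in PP2. In Ribo EEF1D was at 14.2 and 15.8 CPM (DE), 28 and 28.7 (PP1), and 45.7, 32.6 and 37.1 (PP2). The 3 stages did not overlap, and the rise from DE to PP2 was 1.36 ± 0.33 (adjusted p = 0.0123). EEF1B2, the catalytic subunit of the exchange factor, and EEF2K, the kinase that inactivates eEF2, did not pass with all libraries. The EEF1D calls were lost without either DE library of the assay, the RNA rise into PP1 also without PP1 replicate 1, and over all alternatives their adjusted p reached 0.111, 0.115 and 0.0853, and the RNA rise of EEF2 was lost without any 1 library other than RNA PP2 replicate 3, reaching 0.176.

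**Figure D4:**
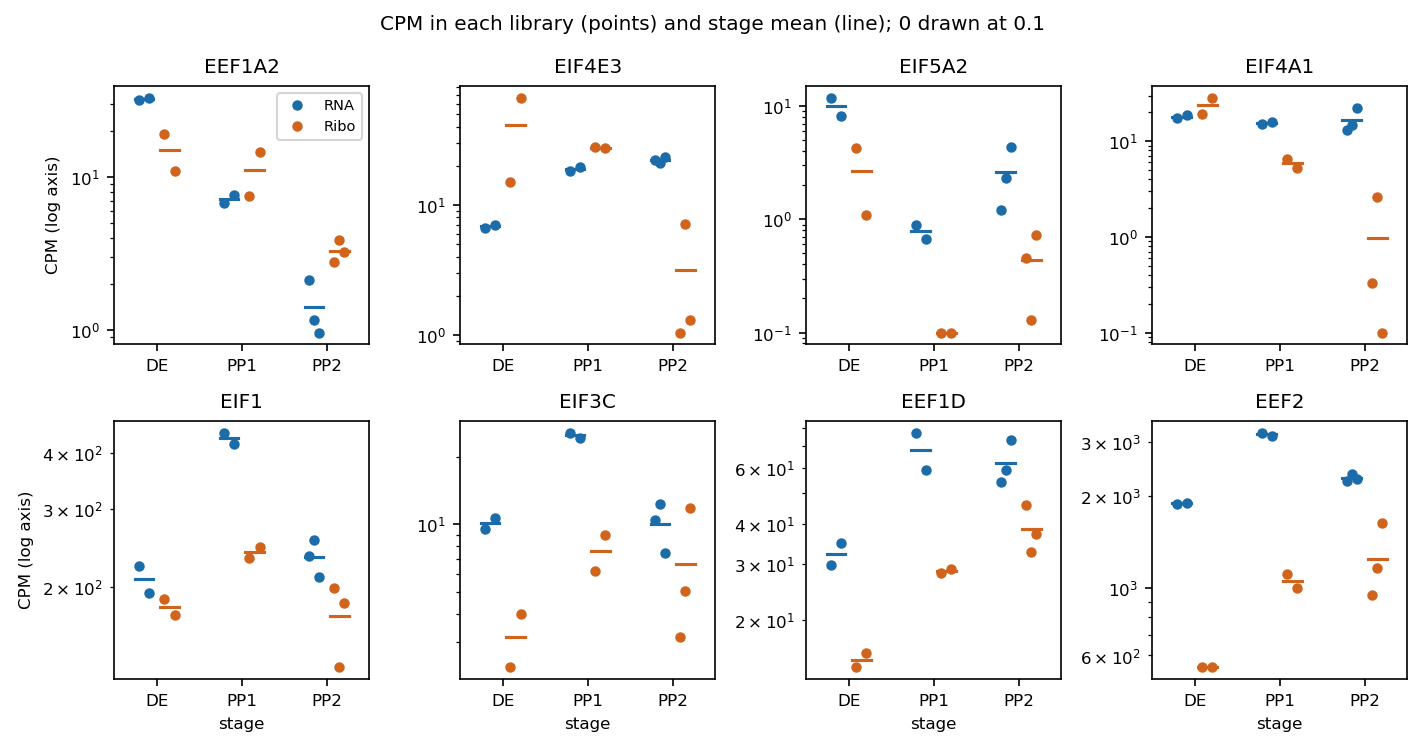
CPM of 8 factors in each library (points) with stage means (lines), RNA in blue and Ribo in orange, on log axes with 0 drawn at 0.1. EEF1A2 falls in each step in RNA, EIF4E3 RNA rises while its 3 PP2 Ribo points lie lowest, and EIF1, EIF3C and EEF2 have their highest RNA points in PP1.

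The ratio of mean Ribo CPM to mean RNA CPM was described within each stage and not tested. Its median over 50 factors was 0.349 in DE, 0.416 in PP1 and 0.552 in PP2, beside 0.443, 0.441 and 0.523 over protein-coding genes with values. EIF4G1 was at 0.105 in DE, 0.214 in PP1 and 0.53 in PP2, EIF3A at 0.482 in DE, 0.806 in PP1 and 1.45 in PP2 and EIF4E3 at 5.98 in DE, 1.46 in PP1 and 0.143 in PP2. Over single Ribo and RNA libraries of a stage these 3 ratios spread widely: in PP2 that of EIF4G1 ran from 0.204 to 1.997 and that of EIF3A from 0.930 to 2.49, and that of EIF4E3 ran from 2.13 to 10.03 in DE and from 0.0449 to 0.339 in PP2. At the other end, EEF1A1 was at 0.0107 in DE, 0.0108 in PP1 and 0.00512 in PP2, EIF4B at 0.0138 in DE, 0.0234 in PP1 and 0.0262 in PP2 and EIF4E at 0.0376 in DE, 0.0607 in PP1 and 0.0327 in PP2. EEF1A1, EIF4B and EIF4E each have 5 or more copies. By the number of rows named as copies of a gene, the median ratio in DE was 0.484 for the 24 factors with none, 0.279 for 17 with 1 to 4, and 0.125 for 9 with 5 or more. In PP2 these medians were 0.867, 0.292 and 0.0581. Spearman's rho between copies and ratio was -0.38 in DE and -0.54 in PP1 and PP2, across 50 genes that share libraries, as a description. How each read with several matches was counted was not given in the sources used here, and the part of copies in the ratio was not tested.

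**Figure D5:**
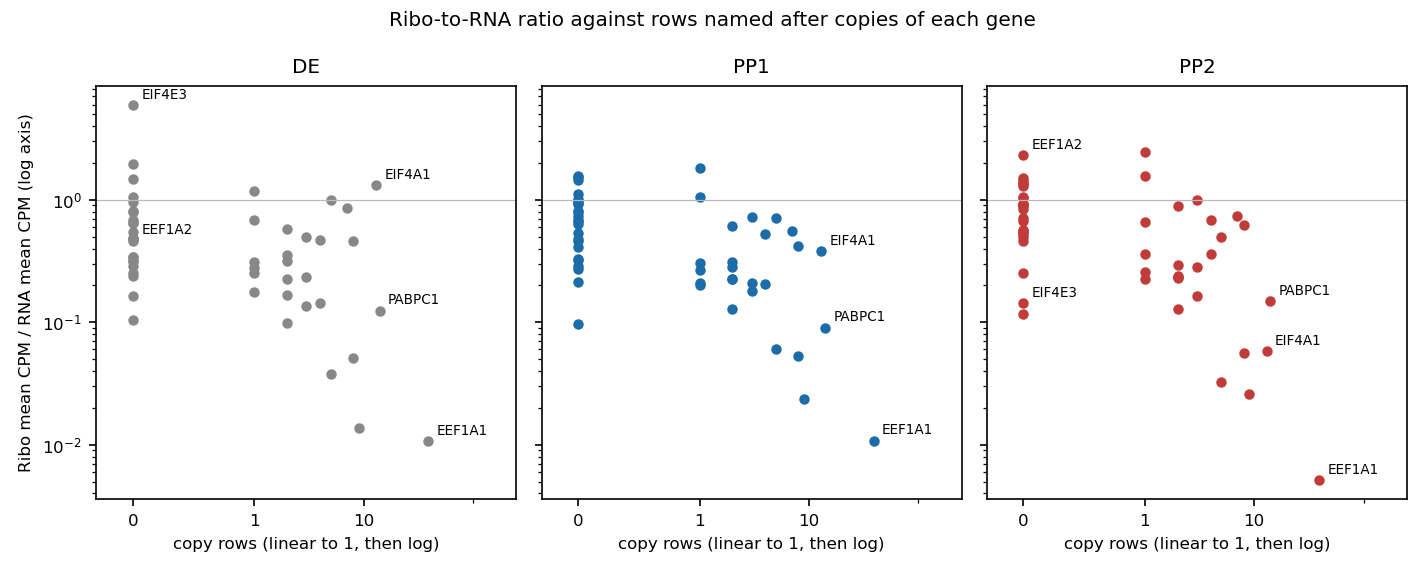
Ratio of mean Ribo to mean RNA CPM (log axis) against the number of table rows named as copies of the gene (linear up to 1, then log) for 50 factors in DE, PP1 and PP2. Genes with 5 or more copies have median ratios of 0.125 in DE and 0.0581 in PP2, and EEF1A1, with 39 copies, is lowest in each stage.

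The changes of the genes whose starts carry the pyrimidine run were set beside those of the others as a description. From DE to PP1 their median RNA change was 0.37 (11 genes, 2 passing), beside 0.25 for the 29 tested genes whose starts lacked it. The factors that had no start among those used, PABPC1 and EEF1D among them, were in neither set. Into PP2 the medians were -0.15 and -0.25. The density change from DE to PP2 had a median of 0.23 with the run and 0.40 without. Within a stage, the median ratio of Ribo to RNA CPM was lower for the 11 genes with the run than for 28 without. The DE medians were 0.225 and 0.526, those of PP1 0.267 and 0.539, and the PP2 medians 0.231 and 0.726. The ranges of the 2 sets overlapped at each stage. Genes with the run also had more copies, a median of 2 beside 0, and the part of run or copies in these ratios was not tested. EEF2 and EIF2S3, shown with their runs above, were the 2 that rose in RNA into PP1. None of the 11 genes with the run passed in Ribo or in density in any comparison with all libraries.

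Other genes of the pathway were read from lists written from general knowledge. Unlike those of the listed factors, their calls were not followed through left-out libraries or other settings. Of 8 eIF2 kinases and phosphatase subunits, 2 rose and 1 fell in RNA from DE to PP1, beside 12.3% and 12% of all genes, and 3 fell from PP1 to PP2, beside 10.6%. PPP1R15A, a stress-induced subunit that directs the phosphatase to eIF2, was at 118 to 140.1 CPM in DE, 316 to 334 CPM in PP1, 48 to 92.4 CPM in PP2. It rose by 1.33 ± 0.31 (adjusted p = 0.0159) and fell by 2.10 ± 0.28 (adjusted p = 0.00222). EIF2AK3, the kinase that senses stress in the endoplasmic reticulum, rose by 0.94 ± 0.24 (adjusted p = 0.0214) and fell by 1.03 ± 0.21 (adjusted p = 0.0129). EIF2AK2, the kinase that senses double-stranded RNA, fell by 0.87 ± 0.18 (adjusted p = 0.00834) into PP1. In the mTORC1 and cap-binding list of 15 genes, 3 rose and 1 fell in RNA from DE to PP2, beside 16.4% and 17.1% of all genes, and 3 rose in Ribo, beside 13.1%. In RNA 11 of the 15 were below 0, with a median of -0.27 beside 0.05 over all genes. DEPTOR, an mTOR inhibitor, was at 1.13 to 2.06 CPM in DE, 35 to 35.8 CPM in PP1, 26.2 to 36.5 CPM in PP2 in RNA, and rose by 4.48 ± 0.33 (adjusted p = 5.9e-05) into PP1. In Ribo it rose by 4.68 ± 0.78 (adjusted p = 0.00416). RPS6KB1, the S6 kinase, rose from DE to PP2 by 1.09 ± 0.21 (adjusted p = 0.00451) in RNA and 1.38 ± 0.44 (adjusted p = 0.0403) in Ribo. PDCD4, which blocks eIF4A, rose in Ribo by 1.44 ± 0.47 (adjusted p = 0.0427) over the same interval. LARP1, which binds TOP messages, was among those lower in PP2 than in PP1, where it fell by 1.33 ± 0.35 (adjusted p = 0.0352). Among 16 tested modifiers of elongation factors, 4 rose and 1 fell in RNA from DE to PP2, beside 16.4% and 17.1% of all genes. Of the 14 tested in density, DNAJC24 and DPH6, both of the diphthamide pathway, were lower in PP2 than in DE, beside 3.71% of all genes. They changed by -2.19 ± 0.47 (adjusted p = 0.0186) and -1.68 ± 0.41 (adjusted p = 0.0294). In RNA, DPH5, an enzyme that makes the diphthamide of eEF2, rose by 0.94 ± 0.16 (adjusted p = 0.00294). DOHH, which completes the hypusine of eIF5A, fell in RNA by 1.15 ± 0.26 (adjusted p = 0.0107). Of 9 termination and recycling genes, none passed in RNA from DE to PP1, where 12.3% of all genes rose and 12% fell. None passed from DE to PP2 either, beside 16.4% and 17.1%. From PP1 to PP2 GSPT2, a paralog of the release factor GSPT1, rose in RNA by 0.72 ± 0.18 (adjusted p = 0.0277) and GSPT1 fell by 0.72 ± 0.20 (adjusted p = 0.0429). Over all genes 7.8% rose and 10.6% fell there. PELO, a rescue factor, rose in Ribo from DE to PP2 by 1.70 ± 0.47 (adjusted p = 0.0232), where 13.1% of all genes rose. Of 7 other initiation and poly(A)-binding partners, DDX3X, a helicase that helps initiation, rose in Ribo from DE to PP2 by 1.66 ± 0.47 (adjusted p = 0.0246), beside the same 13.1% of all genes.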

How the data were processed

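Gene counts from 7 RNA and 7 Ribo libraries were used. The deposited table gives whole read counts per gene made by the authors with featureCounts 1.6.4, with STAR 2.7.1a, Bowtie 1.2 and cutadapt 1.18 also named, per the submitters' processing notes. The role of each tool, the strand setting, the counted feature and the annotation release are not given in the sources used. A deposited gene length column (in bases, a unit outside the usual ones) served for levels per kb.

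The 52 genes and all lists were chosen with earlier results of these data known. Counts were fitted with edgeR 4.0.16 (R 4.3.3): low-count filter by edgeR's default rule, TMM scaling, quasi-likelihood F tests over all stages of an assay, Benjamini-Hochberg adjustment over all genes tested, threshold 0.05. The ratio of Ribo to RNA was tested as an interaction over 14 libraries. DESeq2 1.42.0, DESeq2 size factors, no filter, protein-coding genes only, a replicate block and leaving out libraries were alternatives. Tests were tested on simulated data. All listed genes could be named. Values in each library are given for genes passing in the ratio, the 3 highest and lowest passing changes of each RNA and Ribo comparison, and paralog sets. EIF2S2, EIF2B4, EIF3A, EIF3B and EIF3J were also shown after their values were seen where a result turned on them.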

Additional observations from a re-analysis of the deposited data

How the results depend on the processing

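The number of factors that passed depended on which libraries and settings were used. For RNA from DE to PP1 it was 10 with all libraries and 3 to 34 when 1 library was left out. From PP1 to PP2 it was 7, with 1 to 32 over the left-out libraries and 12 without a low-count filter, and with protein-coding genes only 2 passed upward and 4 downward where 0 and 7 had. From DE to PP2 it was 8, with 2 to 33. The highest of these 3 ranges came without RNA PP2 replicate 3. For Ribo from DE to PP1 it was 0, with 0 to 4 over left-out libraries, 1 without a filter and 10 without PP2 replicates 1 and 3. From PP1 to PP2 it was 1, with 0 to 7, 2 without a filter, in DESeq2 and with protein-coding genes only, and 0 without PP2 replicates 1 and 3. From DE to PP2 it was 6, with 2 to 21, 14 without a filter and 12 in DESeq2. For the density change from DE to PP1 it was 0, with 0 to 0 over left-out libraries, and 6 without RNA PP2 replicate 3 and Ribo PP2 replicates 1 and 3, a setting chosen after seeing the data. From PP1 to PP2 it was 0, with 0 to 2, and 1 without a filter and in DESeq2. From DE to PP2 it was 3, with 0 to 13, 5 without a filter, 8 in DESeq2 and 9 in the setting chosen after seeing the data. The cause of these differences was not tested. With protein-coding genes only, the median density change of all genes from PP1 to PP2 shifted by -0.13.

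Replicate numbers showed no clear pairing of the libraries. The correlation of deviations between libraries of the same number ran from -0.13 to 0.15 across RNA stages. It ran from -0.15 to 0.10 between RNA and Ribo of a stage and from -0.25 to 0.07 across Ribo stages. With 2 libraries in DE and in PP1, the deviations of a stage mirror each other. These values therefore cannot show whether libraries of the same number shared a culture. With a replicate block, 33, 32 and 34 factors passed in RNA from DE to PP1, PP1 to PP2 and DE to PP2, where 24.0% of all genes rose and 23.6% fell, 17.2% and 22.5%, and 24.4% and 26.3%. Replicate 3 exists in PP2 alone, so the block fits that library by a term of its own, and without RNA PP2 replicate 3 the counts were 34, 32 and 33. In Ribo 0, 1 and 2 passed with the block, and in the density change 0, 0 and 2. For PP2 against DE the block left the Ribo calls of EIF4G1 (adjusted p = 0.204), EEF1D (0.0699), EIF2B4 (0.114) and EEF1A2 (0.055) and the density call of EEF1A2 (0.0669) short of the threshold, by edgeR.

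Of 25 RNA calls on single factors, 6 held in all 12 alternatives (EIF4E3 from DE to PP1 and to PP2, EIF5A2 from DE to PP1 and the 3 of EEF1A2). Of 7 Ribo calls, 1 held in all 13 (EIF4A1), and of 3 density calls none held in all 21. Leaving out 1 library turned the direction of EIF4A1 RNA from DE to PP2, which ran from -0.37 (without RNA PP2 replicate 3) to 0.048 (without replicate 1), and of EIF4E3 Ribo from DE to PP1, from -1.25 (without Ribo DE replicate 1) to 0.92 (without replicate 2). Where a stage was left with 1 library, that library was assumed to vary like the others. EIF5A2, with 59 Ribo counts in all, was too low to test in Ribo.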
